A study of Drosophila melanogaster with 21 samples.

Results

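The glutathione transferase genes of Drosophila melanogaster were described on arrays of mosaic larval eye-antennal discs. A gene was taken where its probe set carried 1 gene symbol that begins with Gst and a capital letter, and 34 such genes were found among the 11982 genes with a probe set of 1 symbol. They came from 36 probe sets of the 18769 tested, since GstE9 and GstO2 had a pair each, and the brighter of a pair, by its mean over the 21 arrays, stands for the gene. GstE8 was not analysed here. The arrays address how discs overexpressing the BTB-zinc finger gene abrupt (ab) compare with tumours of ab and scribble (scrib) loss, and which genes respond to the Jun kinase (JNK) Basket in scrib mutant tumours with an activated oncogene.

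There were 7 groups of 3 arrays: discs whose scrib mutant clones overexpressed ab (scrib-+ab), discs with clones overexpressing ab alone (ab), scrib mutant clones with activated Ras (RasV12) and a dominant-negative Basket (scrib-+RasACT+bskDN), the same without bskDN (scrib-+RasACT), scrib mutant clones with activated Notch (the Notch intracellular domain) and bskDN (scrib-+NACT+bskDN), the same without bskDN (scrib-+NACT), and a control of wild type clones on the FRT82B chromosome (FRT control). All larvae had the w1118 background, were raised at the same temperature and were dissected as late larvae on day 5 after egg deposition. Clones were made with the MARCM method, in which ey-FLP recombines the chromosome arm in the eye-antennal disc and tub-GAL4, freed of GAL80, drives the UAS transgenes and a membrane GFP. Each disc therefore held clone cells beside unlabelled neighbours, and fewer cells of a type and less RNA per cell cannot be told apart in such samples. The labels state triplicates but not whether they were separate collections of larvae, so the p-values measure only the spread between these arrays.

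Glutathione transferases couple reduced glutathione to electrophilic compounds, such as plant toxins, insecticides and the aldehydes that form when lipids oxidise, and so belong to the second phase of detoxification. Insects carry the Delta and Epsilon classes (GstD and GstE), which lie in gene clusters, and share the Omega, Sigma, Theta and Zeta classes (GstO, GstS, GstT and GstZ) with other animals. Several Delta genes are used in flies as reporters of the oxidative stress response, in which the transcription factor Cap-n-collar (cnc) acts with maf-S and is held back by Keap1.

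The values are log2 signals after GCRMA, which corrects each probe for background from its sequence, and the lowest value in the table was 2.17. A gene was called changed where limma gave a Benjamini-Hochberg adjusted p under 0.05 over all 18769 probe sets and the log2 difference was over 1 in size. Of the 34 genes, 22 reached 5 log2 in the mean of at least 1 group: 4 of 11 Delta genes, 8 of 13 Epsilon genes and all 3 Omega, 1 Sigma, 4 Theta and 2 Zeta genes. The other 12, GstD2, GstD4, GstD5, GstD6, GstD7, GstD8, GstD11, GstE2, GstE4, GstE7, GstE9 and GstE10, stayed under 5 log2 in every group mean. GstE7 was the sole member of these 12 to be called in any comparison. Signals of different probe sets were not set against each other, because each probe set binds with its own strength.

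The arrays of the ab and scrib-+ab groups could be told from the other 15 by control probe sets. The mean of the poly-A spike-in controls was 2.20 to 2.23 log2, against 6.32 to 8.94 on the other arrays, and the 5′ probe set of GAPDH lay 2.2 to 3.69 log2 below the 3′ one, against 0.29 to 0.673. These properties, the smaller number of discs that the methods give for both groups, and the genotype cannot be told apart in the comparisons of ab and scrib-+ab with the control. Signal of bsk, which the probe set reads from gene and transgene alike, averaged 15.79 log2 in scrib-+RasACT+bskDN against 11.90 in scrib-+RasACT, and 15.79 in scrib-+NACT+bskDN against 11.55 in scrib-+NACT. All 9 markers of the eye-antennal disc that were measured reached 5 log2 in at least 1 group. Their summed signal was 13.62 to 13.83 log2 in scrib-+ab, 14.26 to 14.32 in ab, 14.02 to 14.16 in scrib-+RasACT+bskDN, 13.63 to 14.03 in scrib-+RasACT, 14.08 to 14.16 in scrib-+NACT+bskDN and 14.08 to 14.41 in scrib-+NACT, against 14.74 to 14.85 in the FRT control, so that every other array lay below the control arrays. The part of the disc markers in the results below was not tested.

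**Figure D1:**
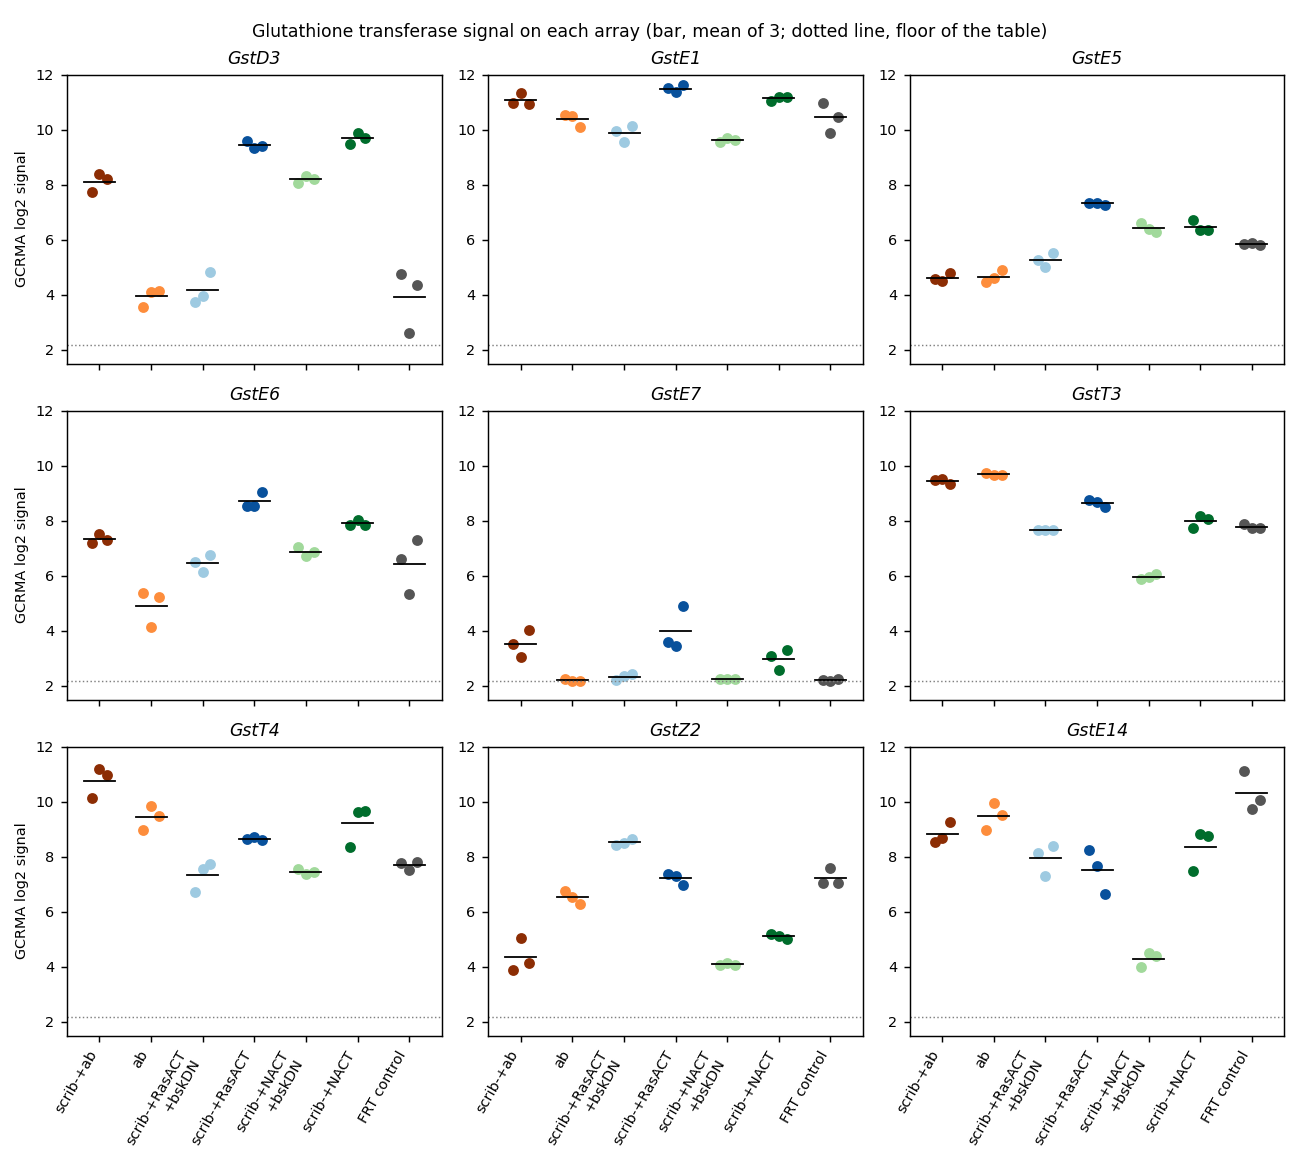
GCRMA log2 signal (y axis) of 9 glutathione transferase genes on each of the 21 arrays, in 7 genotype groups (x axis). Points are arrays, bars are means of 3 and the dotted line is the floor of 2.17. GstD3 averaged 9.68 log2 in scrib-+NACT and 4.18 in scrib-+RasACT+bskDN, against 3.90 in the FRT control.

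Both tumours were compared with the FRT control to see which members move when scrib loss is joined to an activated oncogene. In scrib-+RasACT, 5 of the 34 genes rose (GstD3, GstE6, GstE7, GstE5 and GstE1), while 2.75% of all probe sets rose, and 1 fell (GstE14), while 3.68% of all fell. In scrib-+NACT, 3 rose (GstD3, GstT4 and GstE6), against 1.65% of all probe sets, and 2 fell (GstZ2 and GstE14), against 2.38% of all. Set directly against each other, scrib-+RasACT was higher than scrib-+NACT in 1 member (GstZ2), where 1.19% of all probe sets were higher, and lower in 0 by limma, where 0.778% of all were lower. At an unadjusted p under 0.05 in limma, 11 members were higher and 0 lower. The share of all probe sets at that threshold is not given here, so no excess is read from these counts. The Ras and Notch comparisons share the control arrays. When the tumour and control arrays were fitted without the other groups, the calls of GstE1, GstE6, GstE7 and GstE14 in scrib-+RasACT and of GstE6, GstT4 and GstE14 in scrib-+NACT ended, with differences of the same size and adjusted p of 0.075 to 0.264. Muscle markers were higher in 2 of 6 in scrib-+RasACT (summed signal 11.3 to 11.62 log2, against 9.58 to 10.91 in the control) and 1 of 6 in scrib-+NACT (10.68 to 10.98), and their part in these results was not tested. Disc markers were lower than the control in 5 of 9 in scrib-+RasACT and 2 of 9 in scrib-+NACT.

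Blocking JNK with bskDN was compared within each tumour. In scrib-+RasACT+bskDN, 5 members fell relative to scrib-+RasACT (GstD3, GstE6, GstE5, GstE7 and GstE1), against 1.78% of all probe sets, and 1 rose (GstZ2), against 2.44% of all. This comparison shares the scrib-+RasACT arrays with that of scrib-+RasACT and the control. In scrib-+NACT+bskDN, 7 members fell relative to scrib-+NACT (GstE14, GstT3, GstT4, GstE1, GstD3, GstE6 and GstZ2), against 3.73% of all probe sets. None rose by the same limma rule, against 1.64% of all. At an unadjusted p under 0.05, 0 of the 34 were higher and 13 lower, again without a share of all probe sets to set beside them.

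Markers of other tissues moved with the JNK block in both tumours. Of 11 haemocyte markers 8 fell in scrib-+NACT+bskDN, with a summed signal of 11.42 to 11.56 log2 against 12.94 to 13.26 in scrib-+NACT, and none was at the floor on all arrays of either group. Of 6 muscle markers 5 fell, with a summed signal of 6.11 to 6.755 log2 against 10.68 to 10.98, and 1 was at the floor in both groups. In scrib-+RasACT+bskDN, 1 of 11 haemocyte markers fell (11.39 to 12.81 log2 against 12.58 to 13.86 in scrib-+RasACT) and 2 of 6 muscle markers fell (9.64 to 10.9 against 11.3 to 11.62). Of 8 brain and glia markers, 4 rose and 1 fell in scrib-+RasACT+bskDN (summed signal 12.43 to 12.67 log2, against 11.44 to 11.67 in scrib-+RasACT). The 4 included elav (1.30), which the paper uses as a marker of photoreceptors in the eye disc itself. In scrib-+NACT+bskDN 1 rose and 2 fell (12.59 to 12.88, against 12.09 to 12.26 in scrib-+NACT). The riser was dpn, whose mean of 12.58 log2 in scrib-+NACT+bskDN makes up most of that sum, while repo (-1.88) and insc (-3.98) fell. The median difference of the 8 was -0.716 in the Notch tumour and 0.771 in the Ras tumour. Of the 9 disc markers, 2 fell with bskDN in the Notch tumour and 0 were called by limma in the Ras tumour, where 4 were higher and 1 lower at an unadjusted p under 0.05. Fat body markers were uneven, at 7.12 to 13.41 log2 in scrib-+RasACT+bskDN against 6.34 to 6.63 in scrib-+RasACT and at 7.12 to 7.245 in scrib-+NACT+bskDN against 9.47 to 12.61 in scrib-+NACT. Their part in the results below was not tested.

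Relative to the FRT control, scrib-+RasACT+bskDN differed in 2 members: GstZ2 was higher (1.87% of all probe sets were) and GstE14 lower (1.51% of all were). In scrib-+NACT+bskDN, GstD3 remained above the control (1.58% of all probe sets were higher) and GstE14, GstZ2 and GstT3 were below it (4.13% of all were lower). Disc markers were lower than the control in 5 of 9 in each of these groups, and of 8 brain and glia markers 1 was higher and 4 were lower in scrib-+NACT+bskDN. In that group 7 of 11 haemocyte markers were lower (summed signal 11.42 to 11.56 log2, against 12.21 to 12.86 in the control). Of 6 muscle markers 4 were lower there (6.11 to 6.755 log2, against 9.58 to 10.91). In scrib-+RasACT+bskDN 0 markers of either list were called by limma, with 4 haemocyte markers lower at an unadjusted p under 0.05. The part of these markers in the differences was not tested.

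Overexpression of ab was compared with the control alone and in scrib mutant clones. In scrib-+ab, 4 members rose (GstD3, GstT4, GstT3 and GstE7), against 8.72% of all probe sets, and 8 fell (GstZ2, GstE11, GstD10, GstE14, GstE5, GstS1, GstD1 and GstO3), against 8.46% of all. In ab discs, 2 rose (GstT3 and GstT4), against 8.68% of all, and 4 fell (GstD10, GstS1, GstE11 and GstE5), against 5.87% of all. Counted at an unadjusted p under 0.05 in limma, 12 members were higher and 8 lower in scrib-+ab, and 7 were higher and 7 lower in ab. No share of all probe sets is given beside these counts. The members higher but not called in scrib-+ab included GstO2 (0.91), GstT1 (0.89) and GstE13 (0.88), which were under the fold threshold. Directly between them, scrib-+ab exceeded ab in GstD3, GstE6 and GstE7 (1.82% of all probe sets) and lay below it in GstZ2 and GstO3 (2.46% of all). Haemocyte markers moved too: 4 of 11 rose in scrib-+ab (summed signal 13.41 to 14.05 log2) and 3 of 11 in ab (12.94 to 13.33), against 12.21 to 12.86 in the control. Muscle markers rose in 3 of 6 in each, to 11.75 to 12.17 log2 in scrib-+ab and 11.13 to 11.92 in ab, against 9.58 to 10.91 in the control, and the part of either list was not tested. Disc markers were lower in 6 of 9 and higher in 2 in scrib-+ab, and lower in 2 and higher in 2 in ab. Of 8 brain and glia markers, 1 was higher and 3 were lower in scrib-+ab, and 2 were lower in ab.

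Across the 11 comparisons, the median difference of the 34 genes lay between -0.157 (scrib-+NACT+bskDN minus scrib-+NACT) and 0.155 (scrib-+RasACT minus scrib-+NACT), beside a median of 0 over all probe sets in each. The 12 dim genes, and the probe sets at the floor, hold such medians near 0. Over members at 5 log2 or more in a group compared, a filter that uses the same groups, the median was -0.466 for bskDN in the Notch tumour beside 0.0883 over all such probe sets, -0.331 for bskDN in the Ras tumour beside -0.00917, and 0.448 for scrib-+ab against the control beside -0.0389, and these are given as description.

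**Figure D2:**
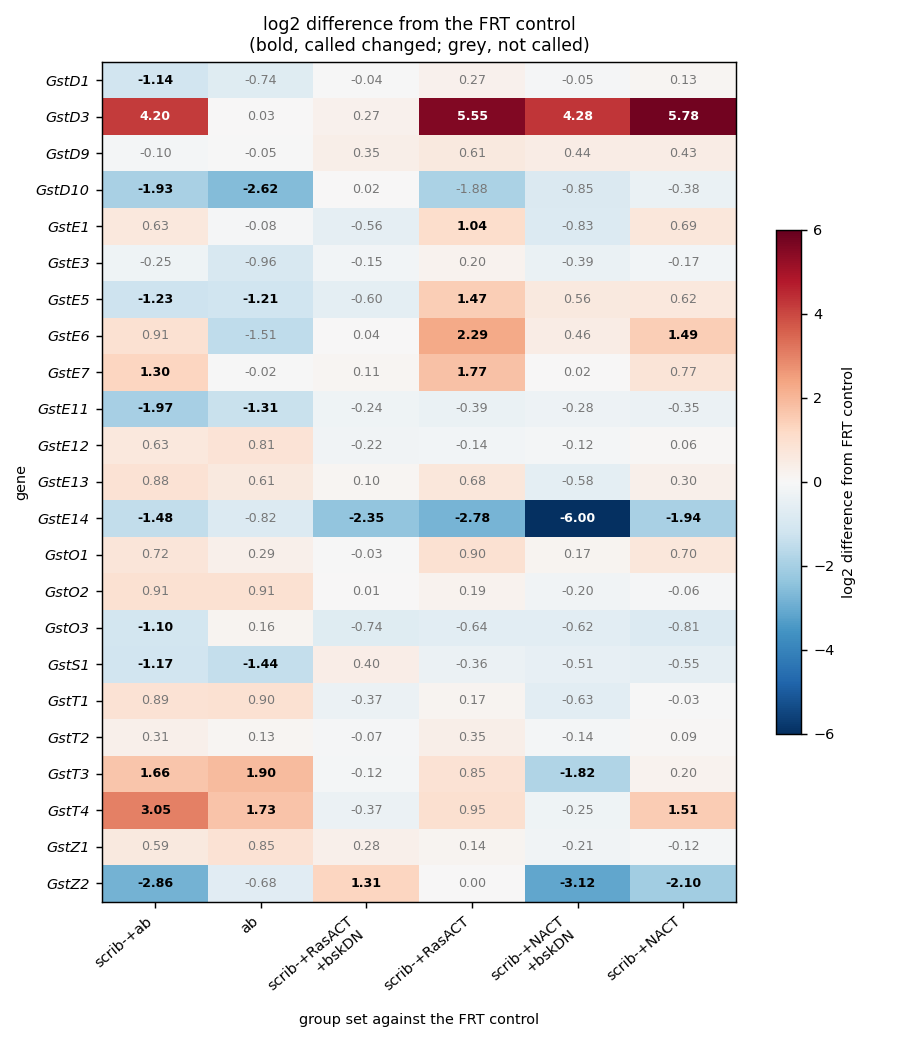
Log2 difference from the FRT control (colour and printed value) of the 22 genes that reached 5 log2 and of GstE7 (rows) in the other 6 groups (columns), with called differences in bold. GstD3 was called higher in 4 of the 6 columns, and GstE14 was called lower in 5, with -6.00 in scrib-+NACT+bskDN.

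GstD3, a Delta class enzyme, was near background in some groups and bright in others. Its signal was 7.72, 8.38 and 8.22 log2 in scrib-+ab and 3.54, 4.11 and 4.15 in ab. It was 3.75, 3.96 and 4.82 log2 in scrib-+RasACT+bskDN and 9.60, 9.34 and 9.41 in scrib-+RasACT. In the Notch pair it was 8.06, 8.30 and 8.21 log2 in scrib-+NACT+bskDN and 9.48, 9.86 and 9.70 in scrib-+NACT, with 4.74, 2.61 and 4.36 in the FRT control. Every array of scrib-+ab, of both tumours and of scrib-+NACT+bskDN thus lay above every array of the control, and those of ab and scrib-+RasACT+bskDN overlapped with the control.

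GstD3 was higher in scrib-+RasACT than in the control by 5.55 log2 (SE 0.42, adjusted p = 4.83e-07). In scrib-+NACT it was higher by 5.78 (SE 0.42, adjusted p = 6.98e-07). The size of a difference from a signal under 5 log2, as in the control, ab and scrib-+RasACT+bskDN, depends on the background correction. In scrib-+ab it exceeded the control by 4.20 (SE 0.56, adjusted p = 0.00166) and ab by 4.17 (SE 0.56, adjusted p = 0.00761), while ab differed from the control by 0.03. Leaving out control array 2, the lowest of the 3, kept these calls but moved the differences from the control to 4.90 in scrib-+RasACT, 5.13 in scrib-+NACT and 3.56 in scrib-+ab. The groups with high GstD3 all carried scrib mutant clones without a JNK block, apart from scrib-+NACT+bskDN.

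With JNK blocked, GstD3 fell by 5.27 log2 in the Ras tumour (SE 0.25, adjusted p = 8.18e-06). In the Notch tumour it fell by 1.49 (2.81-fold, SE 0.25, adjusted p = 0.00416) and stayed 4.28 log2 above the control (SE 0.42, adjusted p = 3.81e-06, and 3.64 without control array 2). The difference between these effects, taken as the bskDN effect in the Ras tumour minus that in the Notch tumour, was -3.78 (SE 0.35, adjusted p = 0.000486), a size that rests on the dim scrib-+RasACT+bskDN signal. With bskDN the mean of GstD3 thus lay within 0.27 log2 of the control in the Ras tumour and well above it in the Notch tumour. The first compares 2 means under 5 log2, where the control arrays ran from 2.61 to 4.74.

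The change of GstD3 was not shared by the genes beside it. Among protein-coding genes of the RefSeq assembly Release 6 plus ISO1 MT, GstD10, GstD9, GstD1, GstD2, GstD3, GstD4, GstD5, GstD6, GstD7 and GstD8 follow each other on chromosome arm 3R. GstD2, its neighbour on one side, was under 2.4 log2 on all arrays except 3: scrib-+RasACT array 3, at 5.32, and FRT control arrays 1 and 3, at 4.50 and 3.32. GstD4, on the other side, lay between 2.17 and 2.18 on all 21 arrays, and GstD5, GstD6, GstD7 and GstD11 stayed at 2.25 or under.

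GstD1, the fly enzyme known for breaking down DDT, and GstD9 were bright in every group. GstD1 had 13.46, 13.44 and 13.02 log2 in scrib-+ab and 13.86, 13.63 and 13.61 in ab, against 14.54, 14.38 and 14.41 in the FRT control. It fell by 1.14 in scrib-+ab (SE 0.14, adjusted p = 0.000992), a call that rested on scrib-+ab array 3, since the difference was -0.99 without it, and the call was also lost after a further quantile normalization (-0.92). GstD1 differed by less than 1 log2 in all comparisons of the Ras and Notch tumours, and GstD9 was called in no comparison. GstD10 had 5.88, 5.04 and 4.50 log2 in scrib-+ab and 4.45, 4.91 and 3.99 in ab, against 7.60, 6.55 and 7.07 in the control. Its difference from the control was -1.93 in scrib-+ab (SE 0.45, adjusted p = 0.0187) and -2.62 in ab (SE 0.45, adjusted p = 0.00587). The call in scrib-+ab ended without scrib-+ab array 2 or 3 or control array 1 or 3, with adjusted p of 0.0533 to 0.0633.

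The Epsilon genes lie on chromosome arm 2R, where GstE10 and GstE1 to GstE9 are neighbours and GstE11, GstE12, GstE13 and GstE14 stand elsewhere. Within the run of neighbours, GstE1, GstE5, GstE6 and GstE7 were each highest in scrib-+RasACT. GstE6 had 7.17, 7.50 and 7.29 log2 in scrib-+ab and 5.36, 4.13 and 5.24 in ab. It had 6.50, 6.12 and 6.74 log2 in scrib-+RasACT+bskDN, 8.55, 8.55 and 9.03 in scrib-+RasACT, 7.03, 6.72 and 6.86 in scrib-+NACT+bskDN and 7.84, 8.04 and 7.83 in scrib-+NACT, with 6.61, 5.32 and 7.31 in the FRT control. All 6 tumour arrays without bskDN lay above the control arrays, while both bskDN groups overlapped with them.

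GstE6 was higher in scrib-+RasACT than in the control by 2.29 (SE 0.40, adjusted p = 0.000721). In scrib-+NACT it was higher by 1.49 (SE 0.40, adjusted p = 0.025), and this call ended without control array 2 (0.94) or scrib-+NACT array 2 or A. The bskDN effect was -2.26 in the Ras tumour (SE 0.18, adjusted p = 0.000146) and -1.03 in the Notch tumour (SE 0.18, adjusted p = 0.00565), where the call, near the fold threshold, ended without scrib-+NACT array 2 or scrib-+NACT+bskDN array A. The bskDN effects differed by -1.22 (SE 0.26, adjusted p = 0.0224), with adjusted p of 0.0547 to 0.0613 without scrib-+NACT array A or scrib-+NACT+bskDN array 1 or B. With all 21 arrays in the fit, neither the Notch effect (adjusted p = 0.11) nor the interaction (0.272) was called. GstE6 also exceeded ab in scrib-+ab by 2.41 (SE 0.56, adjusted p = 0.0466), a call lost on leaving out any 1 of those 6 arrays.

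GstE5, the gene next to GstE6, separated the tumours more sharply. It had 4.58, 4.48 and 4.79 log2 in scrib-+ab and 4.45, 4.59 and 4.90 in ab. It had 5.25, 5.00 and 5.50 log2 in scrib-+RasACT+bskDN, 7.35, 7.34 and 7.26 in scrib-+RasACT, 6.59, 6.38 and 6.27 in scrib-+NACT+bskDN and 6.71, 6.34 and 6.36 in scrib-+NACT, with 5.85, 5.88 and 5.81 in the FRT control. The arrays with and without bskDN overlapped in the Notch pair and were well apart in the Ras pair. GstE5 was higher in scrib-+RasACT than in the control by 1.47 (SE 0.14, adjusted p = 4.26e-06) and fell by 2.07 with bskDN (SE 0.15, adjusted p = 7.15e-05). In the Notch tumour the bskDN effect was -0.05 (SE 0.15), and the effects differed by -2.01 (SE 0.21, adjusted p = 0.000762). Its difference from the control was -1.23 in scrib-+ab (SE 0.13, adjusted p = 0.000533) and -1.21 in ab (SE 0.13, adjusted p = 0.000747), and both calls were lost with a trended and robust variance model (adjusted p = 0.0696 and 0.0847).

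GstE1 fell by a similar amount with bskDN in both tumours. It had 9.96, 9.55 and 10.14 log2 in scrib-+RasACT+bskDN, 11.50, 11.36 and 11.60 in scrib-+RasACT, 9.56, 9.69 and 9.61 in scrib-+NACT+bskDN and 11.02, 11.19 and 11.20 in scrib-+NACT, with 10.98, 9.89 and 10.47 in the FRT control. The bskDN effect was -1.60 in the Ras tumour (SE 0.14, adjusted p = 0.000209) and -1.52 in the Notch tumour (SE 0.14, adjusted p = 0.000178), and the difference between them was not called. Against the control, GstE1 was higher by 1.04 in scrib-+RasACT (SE 0.22, adjusted p = 0.00318), and the difference dropped to 0.76 without control array 2 and to 0.98 without scrib-+RasACT array 3, under the fold threshold.

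GstE7, on the other side of GstE6, was near the floor where it was lowest. It had 3.51, 3.03 and 4.03 log2 in scrib-+ab, 3.61, 3.45 and 4.91 in scrib-+RasACT and 3.07, 2.58 and 3.30 in scrib-+NACT. In ab, both bskDN groups and the FRT control it lay at 2.41 or under on every array. It was called higher than the control by 1.77 in scrib-+RasACT (SE 0.31, adjusted p = 0.000741) and by 1.30 in scrib-+ab (SE 0.23, adjusted p = 0.00548), and higher in scrib-+ab than in ab by 1.33 (SE 0.23, adjusted p = 0.0168), both of which fell under 1 after a further quantile normalization (0.87 and 0.95). With bskDN it fell by 1.66 in the Ras tumour (SE 0.35, adjusted p = 0.0187). Leaving out scrib-+RasACT+bskDN array 1 or 2 raised that p to 0.064 and 0.0609, and leaving out any ab array ended the call of scrib-+ab against ab (0.0529 to 0.0582).

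The other genes of the run were dim: GstE3 never exceeded 5.53 log2 on an array and was called in no comparison, and GstE2, GstE4, GstE9 and GstE10 were under 5 log2 in every group mean. GstE2 reached 2.51, 4.10 and 3.46 log2 in scrib-+ab, where ab was at 2.18 on all 3 arrays, but the difference from the control was not called (1.16, adjusted p = 0.0583).

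**Figure D3:**
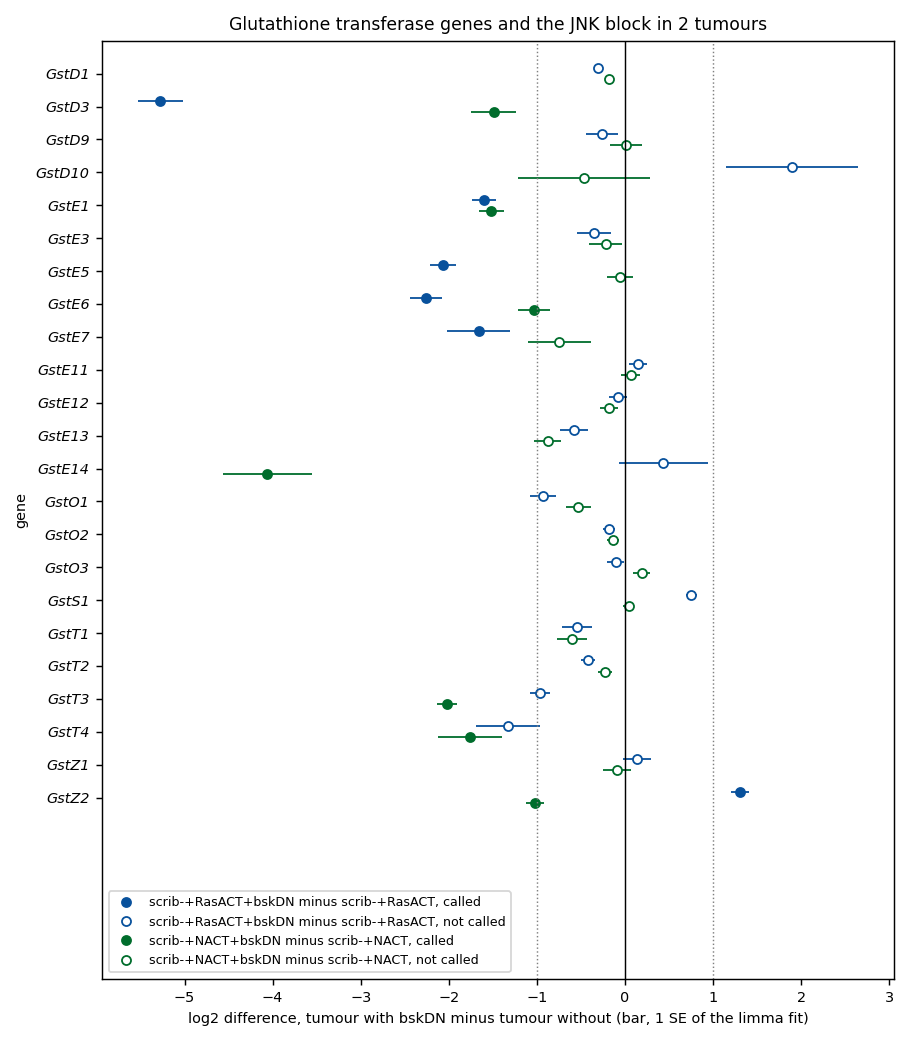
Log2 difference of each gene (rows) between tumours with and without bskDN (x axis), for the Ras tumour (blue) and the Notch tumour (green). Bars are 1 SE of the limma fit, filled points were called and dotted lines mark the fold threshold of 1. GstD3, GstE5 and GstE6 fell further in the Ras tumour, GstE14 fell in the Notch tumour, and GstZ2 moved in opposite directions.

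Among the Epsilon genes outside the cluster, GstE11, GstE12 and GstE13 were bright in all groups. GstE11 had 9.76, 10.19 and 10.11 log2 in scrib-+ab and 10.96, 10.62 and 10.46 in ab, against 12.11, 11.94 and 11.93 in the FRT control. Its difference from the control was -1.97 in scrib-+ab (SE 0.16, adjusted p = 0.000204) and -1.31 in ab (SE 0.16, adjusted p = 0.00142), and no array overlapped with the control. GstE12 and GstE13 differed from the control by less than 1 log2 in every group.

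GstE14, known as noppera-bo, acts in the synthesis of the moulting hormone ecdysone in the prothoracic gland, the endocrine organ beside the brain. Its signal was 8.53, 8.66 and 9.27 log2 in scrib-+ab and 8.98, 9.95 and 9.52 in ab. It was 8.15, 7.31 and 8.40 log2 in scrib-+RasACT+bskDN, 8.24, 7.66 and 6.66 in scrib-+RasACT, 4.01, 4.51 and 4.38 in scrib-+NACT+bskDN and 7.48, 8.83 and 8.77 in scrib-+NACT, with 11.12, 9.75 and 10.05 in the FRT control. All arrays of the 5 groups with scrib mutant clones lay below the lowest control array, and those of scrib-+NACT+bskDN lay below every other array.

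The difference of GstE14 from the control was -6.00 in scrib-+NACT+bskDN (SE 0.48, adjusted p = 5.44e-07), -2.78 in scrib-+RasACT (SE 0.48, adjusted p = 0.000702) and -2.35 in scrib-+RasACT+bskDN (SE 0.48, adjusted p = 0.00551), the last with an adjusted p of 0.0675 in a fit of these groups alone. In scrib-+NACT it was -1.94 (SE 0.48, adjusted p = 0.0156), and without control array 1 or scrib-+NACT array 1 the adjusted p was 0.0775 and 0.0648. In scrib-+ab it was -1.48 (SE 0.44, adjusted p = 0.0464), a call that ended when any array of these groups except control array 2 was left out. With bskDN it fell by 4.06 in the Notch tumour (SE 0.51, adjusted p = 0.00089) and changed by 0.43 in the Ras tumour, and the effects differed by 4.49 (SE 0.72, adjusted p = 0.00571). The scrib-+NACT+bskDN signal was under 5 log2, so the size of the differences that use it depends on the background correction.

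Genes of the prothoracic gland were called in some of the groups where GstE14 was called, but not in all of them. The enzymes of ecdysone synthesis dib, nvd, sad, spok and sro and the gland's hormone receptor tor were listed after the values of GstE14 had been seen. All 6 were lower in scrib-+NACT+bskDN than in the control, with a summed signal of 10.77 to 10.91 log2 against 14.09 to 14.89, and none was at the floor on all arrays of either group. Of these, tor was under 5 log2 in every group mean, at 2.40 in scrib-+NACT+bskDN and 3.46 in the control, so its call compares dim signals. In scrib-+NACT+bskDN 3 of the 6 also fell relative to scrib-+NACT (12.11 to 13.24), with differences of -2.62 for nvd, -2.19 for sro and -2.13 for spok. Between scrib-+RasACT+bskDN (13.21 to 13.8 log2) and scrib-+RasACT (12.52 to 13.39) none was called by limma and 0 had an unadjusted p under 0.05. Of the 6, 3 were lower than the control in scrib-+RasACT, 4 in scrib-+NACT and 3 in scrib-+ab (11.75 to 12.37). In ab discs (12.99 to 13.63) 1 was lower and GstE14 was not called, and in scrib-+RasACT+bskDN none was called, with 4 lower at an unadjusted p under 0.05, although GstE14 was called. The part of the gland's tissue in the GstE14 values was not tested.

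**Figure D4:**
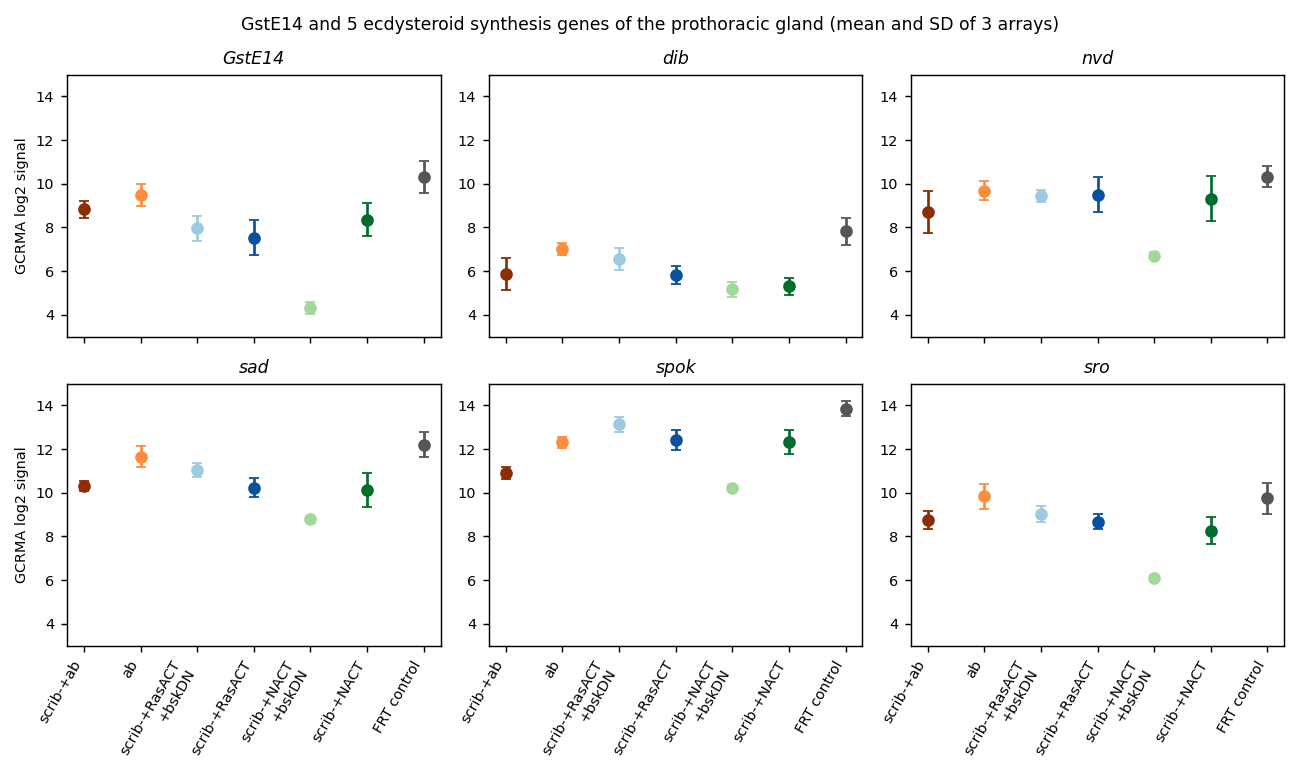
Mean GCRMA log2 signal and SD of 3 arrays (y axis) of GstE14 and of 5 ecdysone synthesis genes of the prothoracic gland in the 7 groups (x axis). GstE14, dib, nvd, sad, spok and sro had their lowest mean in scrib-+NACT+bskDN, with 4.30 log2 for GstE14 and 6.07 for sro, against 10.3 and 9.74 in the FRT control. For dib the mean there was 5.17, close to 5.30 in scrib-+NACT.

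The Theta genes GstT3 and GstT4, both on the X chromosome, were higher than the control in ab and scrib-+ab, whose arrays also differed in control probe sets. GstT3 had 9.46, 9.53 and 9.34 log2 in scrib-+ab and 9.74, 9.64 and 9.67 in ab. It had 7.68, 7.67 and 7.66 log2 in scrib-+RasACT+bskDN, 8.75, 8.66 and 8.49 in scrib-+RasACT, 5.89, 5.95 and 6.06 in scrib-+NACT+bskDN and 7.73, 8.18 and 8.04 in scrib-+NACT, with 7.89, 7.71 and 7.75 in the FRT control. Its arrays were tight within groups, and scrib-+NACT+bskDN was below all others. GstT3 was higher than the control by 1.66 in scrib-+ab (SE 0.06, adjusted p = 1.24e-05) and by 1.90 in ab (SE 0.06, adjusted p = 8.86e-06), and differed by -1.82 in scrib-+NACT+bskDN (SE 0.10, adjusted p = 8.3e-09). With bskDN it fell by 2.02 in the Notch tumour (SE 0.11, adjusted p = 1.22e-05). In the Ras tumour the change was -0.96 (SE 0.11, adjusted p = 0.000994), just inside the fold threshold. The effects differed by 1.06 (SE 0.16, adjusted p = 0.00442), which was 0.96 without scrib-+NACT array 2 and 0.98 without scrib-+RasACT array 3, and 0.71 (adjusted p = 0.0501) after a further quantile normalization.

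GstT4 had 10.14, 11.17 and 10.95 log2 in scrib-+ab and 8.99, 9.84 and 9.49 in ab. It had 6.73, 7.56 and 7.72 log2 in scrib-+RasACT+bskDN, 8.64, 8.73 and 8.61 in scrib-+RasACT, 7.55, 7.36 and 7.45 in scrib-+NACT+bskDN and 8.37, 9.62 and 9.65 in scrib-+NACT, with 7.78, 7.52 and 7.81 in the FRT control. All scrib-+ab, ab and tumour arrays without bskDN lay above the control. GstT4 was higher than the control by 3.05 in scrib-+ab (SE 0.33, adjusted p = 0.000598), by 1.73 in ab (SE 0.33, adjusted p = 0.00833) and by 1.51 in scrib-+NACT (SE 0.35, adjusted p = 0.0103). The last ended without scrib-+NACT array 2 (0.0609) or A (0.0632), which left 3 called members in that comparison in place of 5. With bskDN it fell by 1.76 in the Notch tumour (SE 0.36, adjusted p = 0.0116, and 0.0658 in a fit of these groups alone) and differed by -1.32 in the Ras tumour (SE 0.36, adjusted p = 0.0565). GstT1 and GstT2, neighbours on 2R, were called in no comparison.

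The Zeta class acts in tyrosine breakdown as maleylacetoacetate isomerase, and its members GstZ1 and GstZ2 are neighbours on 3R. GstZ2 had 3.87, 5.05 and 4.15 log2 in scrib-+ab and 6.75, 6.55 and 6.30 in ab. It had 8.43, 8.49 and 8.65 log2 in scrib-+RasACT+bskDN, 7.37, 7.30 and 6.98 in scrib-+RasACT, 4.07, 4.14 and 4.07 in scrib-+NACT+bskDN and 5.20, 5.13 and 5.02 in scrib-+NACT, with 7.03, 7.57 and 7.04 in the FRT control. The scrib-+RasACT arrays overlapped with the control, the scrib-+RasACT+bskDN arrays lay above it and both Notch groups below it, with no overlap between the Ras and Notch arrays.

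GstZ2 was higher in scrib-+RasACT than in scrib-+NACT by 2.10 (SE 0.10, adjusted p = 2.64e-05). Its difference from the control was -2.86 in scrib-+ab (SE 0.33, adjusted p = 0.000877), -3.12 in scrib-+NACT+bskDN (SE 0.23, adjusted p = 2.84e-07) and -2.10 in scrib-+NACT (SE 0.23, adjusted p = 2.78e-05), and 1.31 in scrib-+RasACT+bskDN (SE 0.23, adjusted p = 0.00209). Between scrib-+ab and ab it was -2.18 (SE 0.33, adjusted p = 0.0111), with adjusted p of 0.0577 in a fit of these arrays alone and 0.0806 with a trended and robust variance model. With bskDN it rose by 1.31 in the Ras tumour (SE 0.10, adjusted p = 0.000119) and fell by 1.03 in the Notch tumour (SE 0.10, adjusted p = 0.000278), and the effects differed by 2.33 (SE 0.15, adjusted p = 5.72e-05). The effect in the Notch tumour was -0.98 without scrib-+NACT array 1 and -0.37 (adjusted p = 0.119) after a further quantile normalization. GstZ1 was called in no comparison.

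The Omega and Sigma genes were bright in every group. GstO3 had 11.75, 11.43 and 11.22 log2 in scrib-+ab against 12.72, 12.62 and 12.84 in ab, and 12.56, 12.64 and 12.50 in the FRT control. Its difference was -1.26 between scrib-+ab and ab (SE 0.14, adjusted p = 0.00361) and -1.10 between scrib-+ab and the control (SE 0.14, adjusted p = 0.00118), the last moving to -0.98 without scrib-+ab array 3. GstO1 and GstO2 were called in no comparison. GstS1, the single Sigma gene, which in adult flies is abundant in flight muscle, had 12.44, 12.41 and 12.19 log2 in scrib-+ab and 12.20, 12.05 and 11.99 in ab, against 13.52, 13.40 and 13.63 in the control. The difference from the control was -1.17 in scrib-+ab (SE 0.10, adjusted p = 0.000202) and -1.44 in ab (SE 0.10, adjusted p = 0.000113), and after a further quantile normalization the first was -0.98. In scrib-+RasACT+bskDN it stood at 13.92, 13.87 and 13.96 log2, against 13.07, 13.13 and 13.28 in scrib-+RasACT, a difference of 0.75 that was under the fold threshold.

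The interaction of bskDN with the oncogene was called for 6 members. It was positive for GstE14, GstZ2 and GstT3, where 3.29% of all probe sets were called positive, and negative for GstD3, GstE5 and GstE6, where 1.22% of all were called negative.

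Of 3 regulators of the oxidative stress response, 1 was called in any comparison. The transcription factor gene cnc averaged 10.89 log2 in scrib-+ab, 10.84 in ab, 10.79 in scrib-+RasACT+bskDN, 11.06 in scrib-+RasACT, 10.47 in scrib-+NACT+bskDN and 11.29 in scrib-+NACT, against 10.97 in the FRT control. Its partner maf-S lay between 10.94 and 12.43 in the 7 group means, and neither was called in any comparison. Keap1, which holds Cnc back, rose by 1.20 in scrib-+ab (adjusted p = 9.72e-05) and by 1.26 in ab (adjusted p = 0.000103) and was called in no comparison of the Ras and Notch tumours. Activity of Cnc is set at the protein level and was not measured.

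Other redox genes were counted on the same tests. Of 4 genes of glutathione synthesis and turnover, Ggt-1, a gamma-glutamyl transferase, rose by 1.55 in scrib-+ab and by 1.40 in ab, and CG5493 rose by 2.25 in ab. Gclc, the catalytic subunit of the enzyme that starts glutathione synthesis, differed from the control by -1.13 in scrib-+RasACT+bskDN and by -1.02 in scrib-+RasACT. Of 4 superoxide and catalase genes, Ccs, the copper chaperone of superoxide dismutase, rose by 3.81 in scrib-+ab and by 3.74 in ab, and Cat fell by 1.45 in scrib-+ab. Control signals of Ccs and CG5493 were under 5 log2, so the size of their rises depends on the background correction. The extracellular superoxide dismutase gene Sod3 differed from the control by -2.40 in scrib-+ab and by -1.69 in ab. No gene of either list was called by limma in the JNK comparisons, where 0 to 2 of a list had an unadjusted p under 0.05 in a direction. Of 2 genes of NADPH supply, Men, the malic enzyme, fell by 1.57 with bskDN in the Notch tumour, and 0 were called with bskDN in the Ras tumour, with 1 at an unadjusted p under 0.05. None of the 5 thioredoxin or 4 peroxiredoxin and peroxidase genes was called by limma in any comparison, where at most 3 of the thioredoxin list and 2 of the other had an unadjusted p under 0.05. Only 2 genes of each of these lists reached 5 log2 in a group mean. Several listed redox genes matched no probe set of 1 symbol by name and were not analysed, among them Sod1, Zw, Pgd, Gss1, Gss2, Trx-2 and most peroxiredoxin names.

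Of 9 other glutathione enzymes, the microsomal transferase Mgstl differed from the control by -1.21 in scrib-+RasACT+bskDN, -1.30 in scrib-+RasACT and -1.09 in scrib-+NACT, the glutaredoxin Grx1 rose by 1.16 in scrib-+ab and by 1.00 in ab, and Grx5 fell by 1.06 in ab. Cytochrome P450 enzymes, which act in the first phase of detoxification, were represented by 81 genes, 18 of them at 5 log2 or more in a group. With bskDN in the Notch tumour, 9 fell (3.73% of all probe sets did) and 1 rose (1.64% of all). Those that fell included Cyp6d2 (-2.47), Cyp12e1 (-2.45) and Cyp9c1 (-2.42). With bskDN in the Ras tumour, 5 fell (1.78% of all) and 1 rose (2.44% of all), and Cyp6a20 fell by 3.37. Relative to the control, 2 rose (2.75% of all) and 3 fell (3.68% of all) in scrib-+RasACT, Cyp6a20 rising by 4.03. In scrib-+NACT 2 rose (1.65% of all) and 2 fell (2.38% of all). In scrib-+ab 9 rose (8.72% of all) and 1 fell (8.46% of all), with Cyp6d2 up by 3.66, Cyp49a1 by 3.28 and Cyp28a5 by 3.21. Control signals of Cyp6a20, Cyp6d2, Cyp49a1 and Cyp28a5 were under 5 log2. With bskDN the same held for Cyp6d2 and Cyp12e1 in the Notch tumour and Cyp6a20 in the Ras tumour. The size of these differences therefore depends on the background correction. In ab 2 rose (8.68% of all) and 1 fell (5.87% of all). Of 35 UDP-glycosyltransferases, Ugt35A1 fell with bskDN in both tumours, with -2.50 in the Ras and -4.05 in the Notch tumour, and was higher than the control by 2.69 in scrib-+ab, 2.50 in scrib-+RasACT and 2.81 in scrib-+NACT. Ugt36D1 went the other way: it rose with bskDN by 1.85 in the Ras and 1.32 in the Notch tumour, and its difference from the control was -2.07 in scrib-+ab, -1.17 in scrib-+RasACT and -1.73 in scrib-+NACT.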

How the data were processed

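Expression in 21 samples was measured on Affymetrix Drosophila 2.0 GeneChips. The authors deposited log2 signals made with GCRMA, whose version and the arrays normalized together are not given in the sources used here. No count depth exists for arrays, and 3 arrays a group limit the precision. Gene symbols came from the array annotation, checked by gene number against the RefSeq gene table.

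All 18769 probe sets other than 183 array controls entered linear models (limma 3.58.1, R 4.3.3, lmFit with eBayes; the code was tested on simulated data). The ab groups and the control formed 1 fit (9 arrays), the Ras and Notch tumours with and without bskDN another (12 arrays), and tumours against the control were fitted on all 21 arrays. SE are those of the moderated fit. Every called member is named, along with cnc, Keap1 and maf-S and up to 4 called genes of each other redox list. The members, lists and tests were chosen with earlier results of these data known. Cyclophilin genes, whose symbols are Cyp and a number alone, were left out of the cytochrome P450 list. Summed signals add marker signals on the linear scale.

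Whether equal replicate numbers mark pairs was examined through correlated residuals. All 3 were over 0.1 only for scrib-+RasACT and the control (0.136, 0.143 and 0.213), where a block on the number, a pairing that rests on this check alone, kept the 6 calls. Alternatives were a further quantile normalization, a filter on low values, other arrays in the fit, another variance model, another probe set rule, no fold threshold, blocks on label and number, and leaving out each array.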

Additional observations from a re-analysis of the deposited data

Results flagged for a closer look

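The effect of bskDN differed between the Ras and Notch tumours for 6 genes in the interaction test of limma, each given as the effect in the Ras tumour minus that in the Notch tumour, with adjusted p over all probe sets. For GstD3 the difference was -3.78 (adjusted p = 0.000486), from effects of -5.27 and -1.49. GstE5 differed by -2.01 (adjusted p = 0.000762), with effects of -2.07 and -0.05. GstE6 differed by -1.22 (adjusted p = 0.0224), with effects of -2.26 and -1.03. In the other direction, GstE14 differed by 4.49 (adjusted p = 0.00571), from 0.43 in the Ras and -4.06 in the Notch tumour. GstZ2 differed by 2.33 (adjusted p = 5.72e-05), from 1.31 and -1.03, and GstT3 by 1.06 (adjusted p = 0.00442), from -0.96 and -2.02. Markers of other tissues were called in the same test: 5 of 8 brain and glia markers, 3 of 6 prothoracic gland, 2 of 6 muscle and 1 of 6 fat body (Fbp2, 10.80, adjusted p = 0.00996) with a positive difference, 2 of 11 haemocyte markers with a positive and 1 with a negative one, and 3 of 9 disc markers with a positive and 1 with a negative one. Among the brain and glia markers called, elav also marks photoreceptors of the eye disc. The part of all these markers in the differences was not tested.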

How the results depend on the processing

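The 60 calls of single members gave 880 values under the alternatives, of which 797 kept the call, 83 lost it and 0 changed direction, and 32 calls held under every alternative. With no fold threshold, called members numbered 13 for ab against the control, 13 for scrib-+RasACT, 9 for scrib-+NACT, 5 for scrib-+RasACT+bskDN and 10 for scrib-+NACT+bskDN, 4 for scrib-+RasACT against scrib-+NACT, and 11 for bskDN in each of the Ras and Notch tumours, since genes under the fold threshold then count. Shares of all probe sets called are not given beside the counts in this paragraph, so no excess is read from them. With only the arrays of the groups compared, called members numbered 2 for scrib-+ab against ab, 2 for scrib-+RasACT, 2 for scrib-+NACT and 1 for scrib-+RasACT+bskDN against the control, and the cause was not tested beyond the smaller number of arrays. With a trended and robust variance model, scrib-+ab against ab had 2. A replicate block, on numbers that share no stated pairing, gave 3 for scrib-+ab against ab, 4 for bskDN in the Notch tumour and 3 for the interaction, and kept the other counts within 1.5 times. Without 1 array at a time, counts ran from 6 to 9 for ab, 8 to 13 for scrib-+ab, 5 to 7 for scrib-+RasACT, 3 to 5 for scrib-+NACT, 2 to 2 for scrib-+RasACT+bskDN and 4 to 5 for scrib-+NACT+bskDN against the control, 3 to 6 for scrib-+ab against ab, 1 to 2 for scrib-+RasACT against scrib-+NACT (2 without scrib-+RasACT array 3), 5 to 9 and 6 to 7 for bskDN in the Ras and Notch tumours, and 5 to 6 for the interaction. Leaving the ab and scrib-+ab arrays out of the fit of the tumours, an alternative chosen after seeing the data, gave the same counts of 6, 5, 2 and 4. A further quantile normalization moved the median of ab against the control, over probe sets at 5 log2 or more, from 0.0597 to -0.0506, the share of all calls that were higher from 59.7 to 48.3% there, from 42.6 to 53% for scrib-+ab against ab, from 27.6 to 41.3% for scrib-+NACT+bskDN against the control and from 73 to 56% for the interaction, and the members called in scrib-+ab from 4 higher and 8 lower to 5 and 6.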
